A study of Chlamydomonas reinhardtii with 27 samples.

Results

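The response of Chlamydomonas reinhardtii to the first 2 h of salt stress was measured by setting the 3 libraries of cells collected 2 h after NaCl was added against the 3 libraries of cells cultured without NaCl. These are 6 of the 27 libraries of a time course with 8 time points of salt, and all genes were compared. Of 19267 gene identifiers in the count table, 15283 had enough counts in these 6 libraries to be tested. All cells were the wild-type strain GY-D55, grown in BG-11 medium in cycles of light and dark, and salt was given as concentrated medium that brought the culture to 200 mM NaCl. Whether the control cultures received the same volume of medium without NaCl is not given in the sources used here, and neither is the time at which they were sampled. Salt, the added volume, the age of the culture, and the time of day therefore cannot be told apart in this comparison. No label says that the replicates were separate cultures, so the p-values measure the spread between these libraries.

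C. reinhardtii is a unicellular green alga with 1 large chloroplast, in which light-harvesting proteins pass absorbed light to photosystems I and II. High salt draws water from the cell, brings sodium and chloride ions in, and adds to reactive oxygen species, and green algae are known to answer with compatible solutes such as glycerol and proline. Proteins that fold poorly in the endoplasmic reticulum call up chaperones such as BiP, a response that plants and algae share.

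The total count per library was 17126549 to 22528201 in the control and 17551524 to 24783139 at 2 h. Levels in CPM are counts divided by a library size that TMM corrected, and are given for single libraries or as the mean ± SD of 3. They are relative to the RNA sequenced, and the amount of RNA per cell was not measured. Replicate 1 at 2 h stood apart before any comparison. Its 50 most counted genes took 37.6% of its counts, against 22.1 and 20.4% in replicates 2 and 3 and 22.6 to 28.9% in the control, and it held a count for 14921 genes, against 16640 to 17293 in the other 2 h libraries. The biological coefficient of variation was 0.332 over the 3 libraries at 2 h and 0.151 over replicates 2 and 3 alone. Over the 3 control libraries it was 0.264. On the first principal component, which carried 75.3% of the variance, the controls lay at -105 to -111, replicates 2 and 3 at 80.8 and 88.1, and replicate 1 at 157. The counts of called genes, the gene lists, and the named genes were also tested without replicate 1, and the value is given where a call of these changed. The part of RNA quality or library preparation in this library was not tested.

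About as many genes rose as fell. At an adjusted p below 0.05 in edgeR's quasi-likelihood test, 3884 genes rose, 25.4% of those tested, and 3727 fell, 24.4%. Without replicate 1 at 2 h, 4446 rose and 4306 fell among 15662 tested, or 28.4 and 27.5%. Of the genes called with all 6 libraries, 3748 of those that rose and 3666 of those that fell were called in the same direction without that library, and 0 were called in the other direction. The median log2 fold change over all genes tested was -0.0037. With library totals in place of TMM it was 0.19, and the share of DEGs that rose went from 51.0 to 61.3%, with 3820 up and 2407 down.

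**Figure D1:**
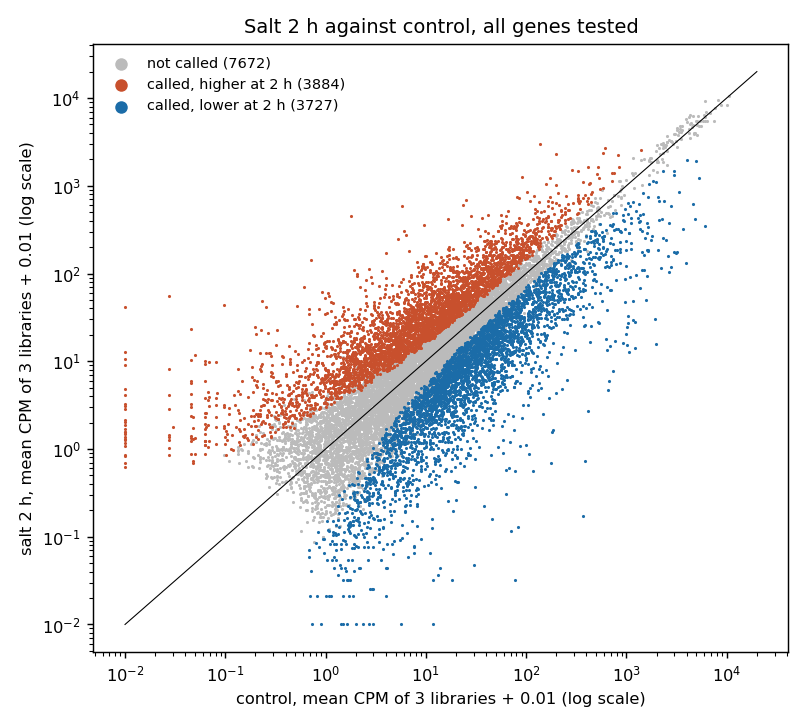
Mean CPM of the 3 control libraries (x axis) and of the 3 salt libraries at 2 h (y axis) for each of the 15283 genes tested, both on log scales after adding 0.01; colour marks the 3884 genes called higher, the 3727 called lower, and the 7672 not called, and the line marks equal levels. The genes along the left edge rose from no or almost no counts, and those along the lower edge fell to none.

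The changes were large in size as well as in number. A log2 fold change beyond 1 was reached by 3229 of the genes that rose and 3175 of those that fell. Beyond 3, or 8-fold, there were 572 and 716 genes, and beyond 6, or 64-fold, 59 and 63. Without replicate 1 these counts were 3489 and 3423 beyond 1, 629 and 657 beyond 3, and 90 and 78 beyond 6. Over all genes tested, the absolute log2 fold change had a median of 1.03. The 3 salt libraries all lay above the 3 control libraries in 4716 genes (30.9%) and all below in 4828 (31.6%). Among the called genes the groups did not overlap in 3837 of the 3884 that rose and 3707 of the 3727 that fell. This follows largely from the call, which used the same values.

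As a description of the genes so chosen, those that fell had taken 37.8 to 42.1% of the counts in the control libraries. They took 14.9, 14.8, and, in replicate 1, 8.69% at 2 h. The genes that rose took 8.52 to 9.73% in the control and 31.7, 32.8, and, in replicate 1, 24.9% at 2 h. The most abundant transcripts were largely the same, since 42 of the 50 most counted genes of the control libraries were also among the 50 most counted at 2 h. The most counted gene of both groups, CHLREDRAFT_195605, took 0.789 to 1.22% of the counts in the control, 0.870 and 0.859% in replicates 2 and 3 at 2 h, and 1.43% in replicate 1. It was not called, and its log2 fold change was 0.02 with all libraries (adjusted p = 0.975) and -0.56 without replicate 1 (adjusted p = 0.0858). Of the 100 genes with the highest FPKM in the control, which also accounts for gene length, 19 fell and 0 rose, where 24.4 and 25.4% of all genes did. Of the 100 with the highest FPKM at 2 h, 2 fell and 6 rose. These counts depended on replicate 1. In the same sets, with calls made without it, 47 fell and 0 rose of the first. Of the second, 32 fell and 6 rose. The second set was ranked with replicate 1 included, so it can hold genes that were high mainly in that library. Ranking by the level in 1 group also tilts the direction of change, so these counts only describe the sets.

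Genes for photosynthesis were far lower at 2 h than in the control. Of 10 that the authors name, 9 fell and 0 rose, where 24.4 and 25.4% of all genes did, with a median log2 fold change of -3.68, and the count was 9 without replicate 1 as well. The authors name these and the following genes in discussing results of these same libraries, some of them beside published studies. Their direction is therefore not independent evidence. Together the 10 genes took 1.16 to 1.56% of the counts in the control libraries and 0.164, 0.211, and 0.201% at 2 h. Every control library lay above every salt library, at an exact two-sided permutation p of 0.1, the smallest that 3 against 3 can give.

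The deepest fall among them was in the antenna of photosystem I. CHLREDRAFT_136294, a light-harvesting protein of photosystem I, had 1997, 1706, and 2143 CPM in the control libraries and 40.4, 29.3, and 21.2 CPM at 2 h. Its log2 fold change was -6.01 ± 0.34 (SE, adjusted p = 5.25e-06), or 64.4-fold lower. A second light-harvesting protein of photosystem I, CHLREDRAFT_187025, went from 754, 607, and 951 CPM to 23.7, 14.4, and 13.2 CPM. In both genes replicate 1 was the highest of the 3 salt libraries and still far below any control. CHLREDRAFT_130914, subunit III of the photosystem I reaction center, which takes part in docking the electron donor, fell from 2215 ± 237 to 116 ± 19.5 CPM, a log2 fold change of -4.26 ± 0.26 (adjusted p = 7.22e-06).

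On the side of photosystem II, the 3 oxygen-evolving enhancer proteins, which stabilize the manganese cluster that splits water, fell together. OEE1 (CHLREDRAFT_130316) had 3117, 2800, and 3572 CPM in the control and 193, 183, and 150 CPM at 2 h, a log2 fold change of -4.17 ± 0.27. OEE2 (CHLREDRAFT_33411) had 1362, 1324, and 2076 CPM in the control and 194, 189, and 170 CPM at 2 h, and OEE3 (CHLREDRAFT_153656) 2158, 1637, and 2365 CPM against 179, 216, and 162 CPM. The log2 fold changes of OEE2 and OEE3 were -3.10 and -3.47, with adjusted p of 2.78e-05 and 1.71e-05. The 3 transcripts thus left the control at different levels and lay within a narrow band at 2 h, between 150 and 216 CPM in every library. In contrast, CHLREDRAFT_112806, a stability and assembly factor of photosystem II, fell only by 0.92 ± 0.22 on the log2 scale (74.8 ± 17.7 to 39.4 ± 1.90 CPM, adjusted p = 0.0065), and it was not called with library totals in place of TMM.

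The genes of carbon fixation moved less evenly. The small chain of ribulose bisphosphate carboxylase (CHLREDRAFT_82986), part of the enzyme that fixes CO2, had 669, 620, and 969 CPM in the control and 356, 290, and 306 CPM at 2 h. Its log2 fold change was -1.25 ± 0.24 (adjusted p = 0.00212). The low-CO2-inducible chloroplast envelope protein (CHLREDRAFT_189430) fell from 387, 360, and 391 CPM to 42.0, 16.0, and 18.6 CPM, and replicate 1 held more than either of the others. A second low-CO2-inducible protein, CHLREDRAFT_148921, was the only member not called in edgeR: it had 882 ± 88.0 CPM in the control and 720 ± 99.4 CPM at 2 h, with overlapping groups (log2 fold change -0.29 ± 0.21, adjusted p = 0.28). With limma voom and sample weights it was called lower (adjusted p = 0.0338).

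**Figure D2:**
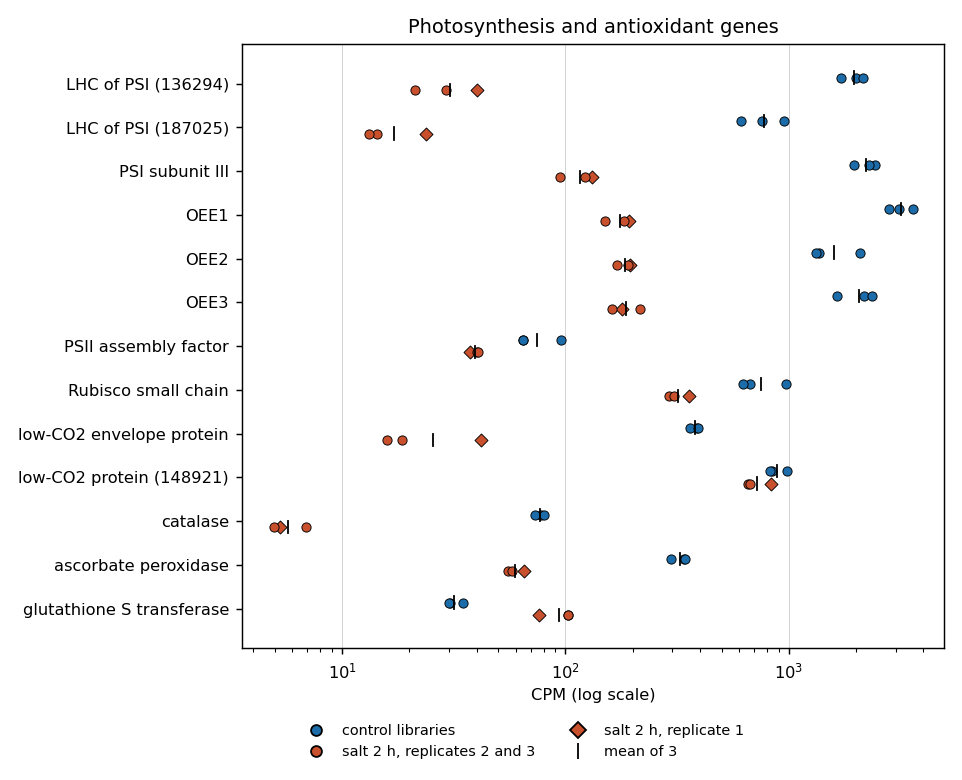
CPM of the 10 photosynthesis genes and 3 antioxidant genes (x axis, log scale) in each of the 3 control and 3 salt libraries, with a bar at the mean of each group and a diamond for replicate 1 at 2 h. The salt libraries lie below the controls in 9 of the 10 photosynthesis genes, with an overlap in the remaining low-CO2-inducible protein, and above them only in glutathione S transferase.

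Of 3 antioxidant genes, 2 fell and 1 rose, against 24.4 and 25.4% of all genes. Catalase (CHLREDRAFT_190083), which breaks down hydrogen peroxide, had 77.9, 73.1, and 79.9 CPM in the control and 5.26, 4.94, and 6.92 CPM at 2 h, a log2 fold change of -3.75 ± 0.23 (adjusted p = 7.13e-06). L-ascorbate peroxidase (CHLREDRAFT_192806), which removes hydrogen peroxide with ascorbate, had 340, 296, and 342 CPM against 65.0, 55.0, and 57.4 CPM, a log2 fold change of -2.46 ± 0.19. Both genes for hydrogen peroxide removal thus fell in every salt library, and replicate 1 lay close to the other salt libraries in both. Glutathione S transferase (CHLREDRAFT_195543), which couples glutathione to reactive compounds, rose from 31.8 ± 2.76 to 93.7 ± 15.5 CPM (log2 fold change 1.56 ± 0.21, adjusted p = 0.000281).

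All 4 genes grouped here under folding and stress rose, where 25.4% of all genes did, with a median log2 fold change of 2.34. All 4 rose without replicate 1 too. The authors tie the BiP genes to stress of the endoplasmic reticulum, and list HSP70B and BAX inhibitor 1 as stress proteins. BiP is the HSP70 chaperone of the endoplasmic reticulum, and 2 genes carry its name. CHLREDRAFT_133650 had 1.89, 0.580, and 2.84 CPM in the control and 392, 451, and 512 CPM at 2 h. From 11 to 48 counts per control library it went to 6627 to 13439, a log2 fold change of 8.00 ± 0.51 (adjusted p = 7.59e-06), or 256-fold. CHLREDRAFT_133859 was well expressed before, with 165, 158, and 150 CPM, and had 1026, 984, and 1137 CPM at 2 h, 6.65-fold more. How reads that match several genes were counted is not given in the sources used here, so the division of reads between similar BiP copies is uncertain.

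Per length, the BiP copies were far apart in the control. CHLREDRAFT_133650 had a mean FPKM of 1.01 and CHLREDRAFT_133859 of 63.0. At 2 h the means were 246 and 400. In the gene order of the reference assembly v5.5 a single gene, CHLREDRAFT_97057, lies between the pair. It rose too, from 79.9 ± 2.07 to 336 ± 59.3 CPM (log2 fold change 2.07 ± 0.20, adjusted p = 5.43e-05). HSP70B (CHLREDRAFT_126835), the HSP70 of the chloroplast, had 66.1, 98.2, and 142 CPM in the control and 419, 302, and 352 CPM at 2 h. BAX inhibitor 1 (CHLREDRAFT_139760), a membrane protein that in plants and animals protects cells under stress of the endoplasmic reticulum, rose from 34.7 ± 3.81 to 134 ± 9.01 CPM. Their log2 fold changes were 1.81 ± 0.29 (adjusted p = 0.000819) and 1.95 ± 0.19 (adjusted p = 5.72e-05).

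Genes that supply osmolytes rose in 5 of 7 cases and fell in 0, against 25.4 and 24.4% of all genes, with a median log2 fold change of 1.03. Of the 5, triosephosphate isomerase was near the threshold and lost its call under several settings. Glycerol is made from dihydroxyacetone phosphate by glycerol-3-phosphate dehydrogenase and a phosphatase, and starch is the store that can feed this path. The glycerol-3-phosphate dehydrogenase CHLREDRAFT_146945 stood out from the rest of the list, with 31.4, 24.1, and 19.8 CPM in the control and 506, 720, and 822 CPM at 2 h. Its log2 fold change was 4.76 ± 0.30 (adjusted p = 7.26e-06), or 27.2-fold. The dehydrogenase gene GPD1 (CHLREDRAFT_94229) rose 1.83-fold, from 17.4 ± 1.23 to 31.8 ± 1.55 CPM (adjusted p = 0.00538). The difference between these dehydrogenases was not tested.

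For 2 genes of the list the call changed without replicate 1 and with other settings. CHLREDRAFT_146946, named as a fragment of glycerol-3-phosphate dehydrogenase and found 3 genes from CHLREDRAFT_146945, had 15.8, 17.4, and 13.6 CPM in the control and 13.3, 34.8, and 47.0 CPM at 2 h. With all libraries it was not called (log2 fold change 1.03 ± 0.40, adjusted p = 0.0561), and without replicate 1, the low value, it was (1.39, adjusted p = 0.000354). With all libraries it was also called by DESeq2 (adjusted p = 0.0431), limma (0.000368), one fit of 27 libraries (0.00266), and both other filters on low counts (0.0477 and 0.0498). Triosephosphate isomerase (CHLREDRAFT_26265), which makes dihydroxyacetone phosphate, had 157, 122, and 127 CPM against 268, 185, and 169 CPM. It passed with all libraries (0.62 ± 0.23, adjusted p = 0.0477) and not without replicate 1, the high value (0.39, adjusted p = 0.0824), nor without any control library or replicate 2 at 2 h (adjusted p of 0.0572 to 0.16). With all libraries it did not pass in DESeq2 (adjusted p = 0.0794), with RLE size factors (0.0903), or among genes with 10 counts or more in every library (0.0532).

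The alpha-amylase AMY1 (CHLREDRAFT_173725), which cuts starch, rose from 111 ± 25.9 to 222 ± 14.4 CPM (adjusted p = 0.00371), or 2.00-fold. P5CS2 (CHLREDRAFT_130812), the pyrroline-5-carboxylate synthetase that begins the synthesis of proline, had 117, 121, and 120 CPM in the control and 393, 268, and 282 CPM at 2 h, a log2 fold change of 1.40 ± 0.21 (adjusted p = 0.000519). The glycerol-3-phosphatase GS1 (CHLREDRAFT_184987) was measured at only 28 to 68 counts per control library and 98 to 167 at 2 h, and its log2 fold change of 1.15 ± 0.49 did not pass (adjusted p = 0.0767), though it did without control replicate 3 (1.58, adjusted p = 0.0384), and with all libraries in limma (0.0212) and in one fit of 27 libraries (0.00289).

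**Figure D3:**
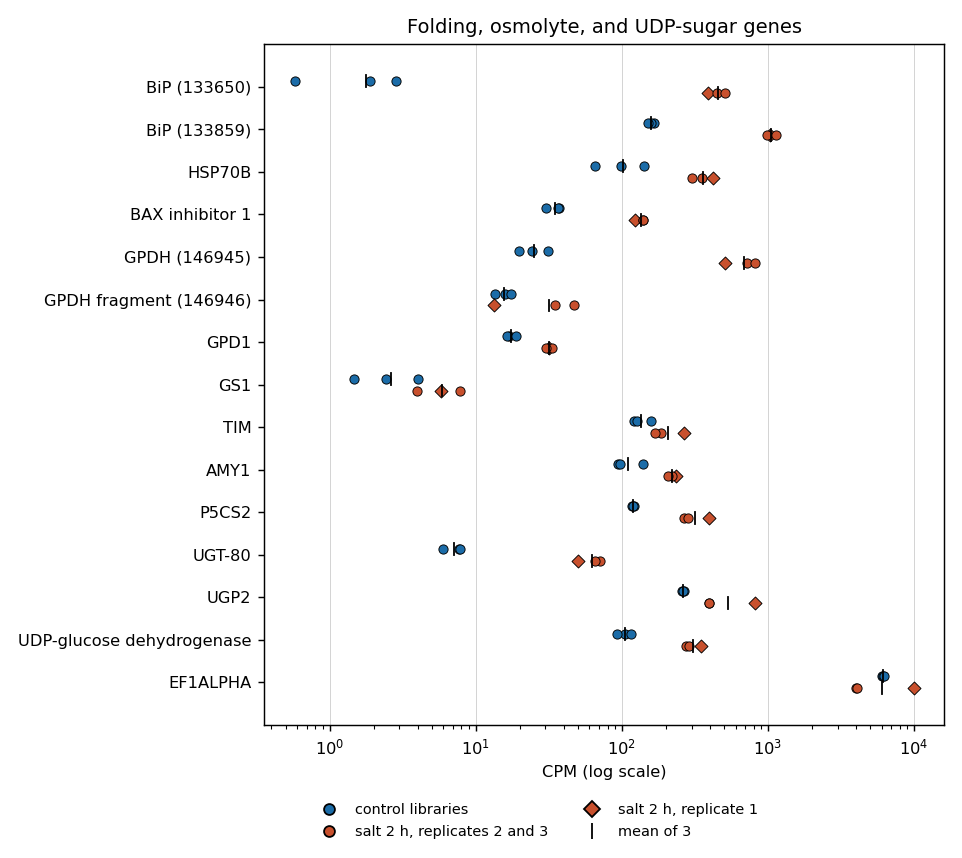
CPM (x axis, log scale) of 4 folding and stress genes, 7 genes of osmolyte supply, 3 genes of UDP-sugar metabolism, and EF1ALPHA in each control and salt library, with a bar at the mean of each group and a diamond for replicate 1 at 2 h. The lower BiP gene moves from 2.84 CPM or less to 392 CPM or more. Replicate 1 lies well above the other salt libraries in UGP2 and EF1ALPHA, and well below them in the fragment of glycerol-3-phosphate dehydrogenase.

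Among 9 genes of carbohydrate and lipid metabolism, 5 rose and 3 fell, against 25.4 and 24.4% of all genes. The 4 named members on the side of sugar conjugates rose. UGT-80 (CHLREDRAFT_154976), a UDP-glucosyltransferase, had 7.67, 7.75, and 5.98 CPM in the control and 49.8, 71.4, and 65.2 CPM at 2 h, a log2 fold change of 3.12 ± 0.24 (adjusted p = 1.84e-05). UDP-glucose 6-dehydrogenase (CHLREDRAFT_185081), which makes UDP-glucuronate for the cell wall, went from 106, 92.6, and 115 CPM to 350, 277, and 289 CPM (1.55 ± 0.19). The galactose oxidase gene RUBY (CHLREDRAFT_196816) rose 1.84-fold. UGP2 (CHLREDRAFT_157049), which makes UDP-glucose, had 257, 265, and 263 CPM in the control and 810, 395, and 394 CPM at 2 h, so that the size of its rise rested on replicate 1: the log2 fold change was 1.03 ± 0.30 (adjusted p = 0.0171) with it and 0.59 (adjusted p = 0.00725) without it. Without any 1 of the control libraries UGP2 was not called (adjusted p of 0.0559 to 0.0626).

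The 3 members that fell were a pyruvate kinase and both genes of lipid synthesis. Biotin carboxylase (CHLREDRAFT_122970), a subunit of the acetyl-CoA carboxylase that commits carbon to fatty acids, had 51.9, 60.6, and 104 CPM in the control and 6.38, 8.33, and 5.42 CPM at 2 h, a log2 fold change of -3.42 ± 0.33 (adjusted p = 5.33e-05). UDP-sulfoquinovose synthase (CHLREDRAFT_27658), which makes the head group of the sulfolipid of chloroplast membranes, fell from 153, 115, and 112 CPM to 30.1, 30.7, and 29.0 CPM (-2.08 ± 0.20). The 3 pyruvate kinase genes, for the last step of glycolysis, went different ways. CHLREDRAFT_118203 fell by 1.66 ± 0.28 on the log2 scale, CHLREDRAFT_196263 rose by 0.75 ± 0.20, and CHLREDRAFT_196261, at 33.4 ± 3.26 and 39.9 ± 3.89 CPM, was not called (adjusted p = 0.302). The adjusted p of the called members were 0.00111 and 0.013, and the rise of CHLREDRAFT_196263 did not pass without control replicate 1 (0.0524) or 2 (0.0598).

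The genes of transcription factors (TFs) leaned upward. The authors list 113 TFs by homology to Arabidopsis thaliana, from genes that responded to salt in these libraries, so the list is not independent evidence of a response. Of the 107 tested, 49 rose (45.8%) and 13 fell (12.1%), where 25.4 and 24.4% of all genes did, and the median log2 fold change was 0.78 against -0.0037 over all genes. Without replicate 1, 56 of 110 rose and 16 fell. With library totals in place of TMM 7 fell, and without control replicate 2, 8.

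By family, with the same shares of all genes for comparison, all 5 C2H2 zinc finger genes tested rose, with log2 fold changes of 0.73 to 3.45. Of the C2C2 family, which holds GATA and CONSTANS-like factors in plants, 5 of 7 rose and 0 fell. The MYB family had 8 up and 1 down of 16, the C3H zinc finger family 8 up and 1 down of 19, and the GARP family 3 up of 5. Without replicate 1 these were 10 up and 2 down of 18, 9 up and 1 down of 19, and 3 up and 1 down of 5. The RWP family, which in C. reinhardtii includes regulators of nitrogen and of mating, had 5 up and 3 down of 10, AP2/ERF had 3 up and 3 down of 10, and SBP, a family that includes the copper regulator of this alga, 2 up of 6. The shares in AP2/ERF, and that of SBP genes up, lay near those of all genes. Without replicate 1 RWP had 6 up and 2 down and AP2/ERF 3 up and 4 down.

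**Figure D4:**
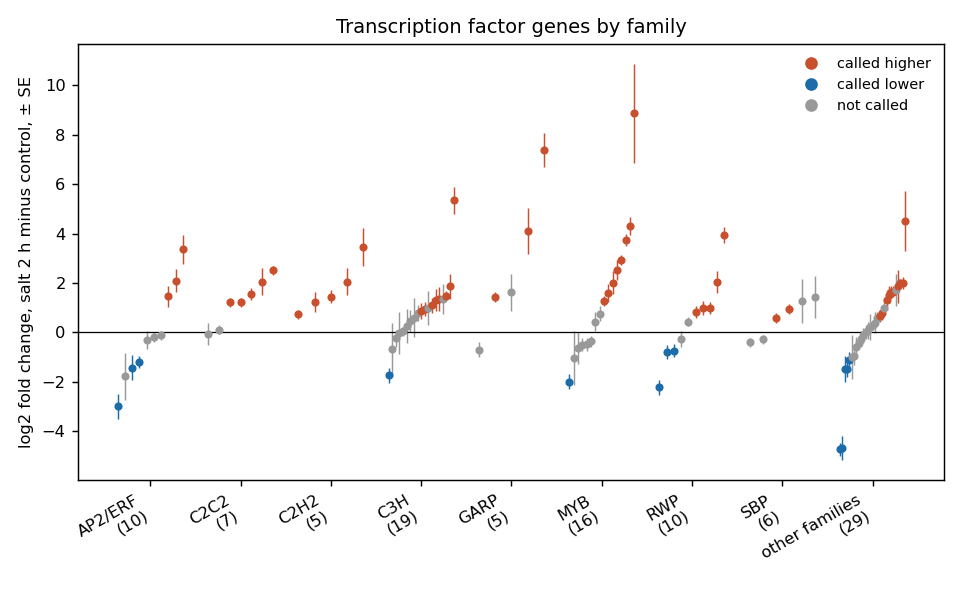
Log2 fold change at 2 h against control (y axis, with its SE as a bar) of the 107 TF genes tested, sorted within families of 5 or more and with the other families pooled; colour marks genes called higher, called lower, or not called, and the number tested is under each family. All 5 C2H2 genes lie above 0, and the 2 lowest points are the CSD gene at -4.73 and the HB gene at -4.70.

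Of 7 regulators that the authors name in the text, 6 rose, where 25.4% of all genes did. The MYB88 homolog (CHLREDRAFT_205725) had 3.21, 2.90, and 4.03 CPM in the control and 46.0, 42.5, and 48.2 CPM at 2 h, a log2 fold change of 3.75 ± 0.24 (adjusted p = 7.75e-06). In A. thaliana MYB88 acts in the last division of the stomatal lineage. The WRKY gene (CHLREDRAFT_205718), of a family known in plants for stress responses, had 31.1, 30.2, and 26.3 CPM against 69.0, 107, and 99.4 CPM (1.65 ± 0.22), and replicate 1 was the lowest of the salt libraries in it. The Alfin gene (CHLREDRAFT_127913) rose from 9.56 ± 1.34 to 29.9 ± 6.49 CPM, and the RWP gene CHLREDRAFT_195915 from 4.32 ± 2.91 to 17.9 ± 2.25 CPM. The C2C2 genes CHLREDRAFT_205871 and CHLREDRAFT_171659 rose 2.31-fold and 2.94-fold. The MYB gene CHLREDRAFT_168936 had 14.9 ± 4.30 CPM in the control and 25.0 ± 6.58 CPM at 2 h and did not pass (adjusted p = 0.0622), though it did without replicate 2 at 2 h (adjusted p = 0.0474), and with all libraries in limma (0.0311) and in one fit of 27 libraries (0.00387).

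The largest rises among the other TFs started from few counts. The GARP gene CHLREDRAFT_115247, matched by the authors to the A. thaliana gene known as BOA, a component of the circadian clock of that plant, had 2, 1, and 0 counts in the control libraries and 238, 278, and 150 counts at 2 h. The ratio of the groups was 179, with a 95% exact interval of 60.9 to 870, which covers counting error only. The C3H gene CHLREDRAFT_119209 had 3, 7, and 5 counts against 296, 286, and 151 (log2 fold change 5.34 ± 0.56). Both genes passed the filter on low counts through the salt libraries, so that they were called is no result. Higher in the control, at 15 to 34 counts, the MYB gene CHLREDRAFT_107210 had 28.5, 31.8, and 30.1 CPM at 2 h and a log2 fold change of 4.32 ± 0.36 (adjusted p = 2.63e-05). The RWP gene CHLREDRAFT_195840, matched to RKD4, a factor of the early embryo in A. thaliana, had 2.68, 2.22, and 4.27 CPM against 58.7, 39.1, and 44.4 CPM (3.96 ± 0.32).

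The MYB gene CHLREDRAFT_112628, matched to CCA1, another clock gene of A. thaliana, was at 0 counts in all 3 control libraries. At 2 h it had 124, 19, and 14 counts, or 7.33, 0.638, and 0.654 CPM, so most of its reads came from replicate 1. Against the floor of 3 counts over the control group its mean was at least 52.5-fold higher. It passed the filter on low counts through the salt libraries alone, so that it was called is no result. Among well-expressed members, a C2C2 gene among the transcripts that the authors assembled, matched to the CONSTANS-like gene COL4, had 43.7, 48.7, and 46.7 CPM in the control and 243, 292, and 263 CPM at 2 h (2.52 ± 0.19, adjusted p = 1.51e-05). The MYB gene CHLREDRAFT_129649, matched to the splicing factor CDC5, rose from 34.4 ± 2.17 to 83.2 ± 11.2 CPM.

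Only 2 TFs fell more than 16-fold. The cold shock domain gene CHLREDRAFT_126810, of a family of RNA-binding proteins that act as RNA chaperones in plants and bacteria, had 525, 385, and 405 CPM in the control and 13.8 to 20.8 CPM at 2 h, a log2 fold change of -4.73 ± 0.26 (adjusted p = 5.08e-06). The homeobox gene CHLREDRAFT_186803 had 61.9, 89.4, and 47.3 CPM against 0.886, 3.53, and 3.09 CPM (-4.70 ± 0.48). The lowest member in each of the AP2/ERF, RWP, MYB, and C3H families, CHLREDRAFT_148404, CHLREDRAFT_195860, and 2 assembled transcripts, fell by 2.99, 2.22, 2.00, and 1.74 on the log2 scale, and all 4 were called without replicate 1 too.

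Beyond the genes with a name, the largest changes went between near silence and expression. Of the genes tested, 25 had no count in any control library and 11 had none in any salt library at 2 h. They passed the filter on low counts through the other group alone, so that they were called is no result. A transcript that the authors assembled from the reads had 0 counts in each control library and 380, 1301, and 1257 counts at 2 h. With the floor of 3 counts over the control group it was at least 761-fold higher. CHLREDRAFT_150155 and CHLREDRAFT_180275, also at 0 counts in the control, had 122, 466, and 336 counts and 134, 337, and 277 counts, and were at least 235-fold and 196-fold higher. In these genes replicate 1 was the lowest of the 3 salt libraries. In the other direction, CHLREDRAFT_181491 had 179, 276, and 197 counts in the control and 0 in each salt library, at least 270-fold lower.

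Other genes had only a few counts over the control libraries. These too passed the filter on low counts through the salt libraries, so that they were called is no result. CHLREDRAFT_186153 went from 1 count over the 3 control libraries to 400, 1873, and 1737 counts. The ratio was 3231, with a 95% exact interval of 580 to 127651, which covers counting error only and not the spread between libraries. CHLREDRAFT_165135 had 2 counts over the control libraries and 78, 884, and 777 at 2 h, and its replicate 1 was again low. CHLREDRAFT_144262 had 2, 3, and 0 counts against 1092, 1077, and 651, and CHLREDRAFT_186326 had 6, 1, and 5 against 901, 1384, and 992. The remaining members of the 10 largest rises, CHLREDRAFT_144494 and a second assembled transcript, had 2 counts over the control group and 93 to 389 and 141 to 323 counts per salt library.

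Some of the deepest falls began from high expression. CHLREDRAFT_192728 had 374, 352, and 394 CPM in the control, or 6647 to 7121 counts per library, and 0, 9, and 4 counts at 2 h. CHLREDRAFT_191592 went from 6426 to 8137 counts per control library to 5, 38, and 12 counts. CHLREDRAFT_150144 had 1303 to 1599 counts per control library and 2 counts over the salt libraries. The ratio was 2627, with an interval of 727 to 21702 that again covers counting error only. CHLREDRAFT_173507, with 83.5 ± 5.24 CPM in the control, was at 0.118 ± 0.103 CPM at 2 h. The other members of the 10 largest falls, CHLREDRAFT_142120 and 3 assembled transcripts, had 0 counts in replicate 1 and 0 to 4 counts in replicates 2 and 3. These genes passed the filter on low counts through the control libraries, so that they were called is no result. No source used here gives these genes a name or role.

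Some of these changes were shared by neighbours, as ordered in the reference table of assembly v5.5, which matched 11148 of the tested genes. In 2105 cases both of 2 adjacent genes were called, and in 1241 of them (59.0%) the direction was the same, where the numbers of genes called in each direction would give 50.1%. Without replicate 1 it was 1592 of 2742 (58.1%), against the same 50.1%. Overlapping transcripts and reads shared between neighbours can add to this figure, and the use of strand in counting is not given in the sources used here. The following stretches were chosen after their values were seen. Around CHLREDRAFT_193339, of the 10 largest falls, all 6 tested genes from CHLREDRAFT_193344 to CHLREDRAFT_193339 fell. In it CHLREDRAFT_193343 went from 616, 604, and 729 CPM to 5.55, 4.23, and 4.16 CPM, and CHLREDRAFT_185219 from 340, 389, and 506 CPM to 1.83, 3.02, and 3.18 CPM. The other members were CHLREDRAFT_193344, CHLREDRAFT_177412, and CHLREDRAFT_193342, with log2 fold changes of -6.86, -3.57, and -2.74, and CHLREDRAFT_177412, at 2.90 ± 2.26 CPM in the control, was not called without control replicate 2 or 3 or replicate 2 at 2 h (adjusted p of 0.054 to 0.116).

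A second stretch begins with L-ascorbate peroxidase. The next gene, CHLREDRAFT_192807, had 184, 134, and 125 CPM in the control and 0.886, 3.19, and 3.32 CPM at 2 h, and the gene after it, CHLREDRAFT_151050, 44.6, 48.7, and 42.5 CPM against 0, 0.302, and 0.140 CPM. Both thus fell far more than the peroxidase itself. CHLREDRAFT_184730 and CHLREDRAFT_184731, adjacent and both abundant in the control (2610 ± 243 and 2632 ± 216), fell to 160 ± 63.7 and 105 ± 41.3 CPM, and in both replicate 1 was the highest salt library. On the rising side, CHLREDRAFT_186153 lies next to CHLREDRAFT_172864 and CHLREDRAFT_183952. These had 1.21, 2.00, and 2.96 CPM and 1.10, 0.633, and 0.829 CPM in the control. At 2 h they had 110, 90.0, and 93.7 CPM and 49.5, 34.8, and 35.1 CPM, log2 fold changes of 5.57 ± 0.34 and 5.53 ± 0.33.

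Replicate 1 changed some results and left most in place. Among the genes that rose it was the highest of the 3 salt libraries in 53.8% and the lowest in 33.5%. Among those that fell it was the lowest in 62.4% and the highest in 24.0%. A clear case among the abundant named genes was EF1ALPHA (CHLREDRAFT_132905), an elongation factor of translation that the authors used as the reference gene for qRT-PCR. It had 6023, 6140, and 6175 CPM in the control and 9904, 4032, and 4080 CPM at 2 h. Its log2 fold change was -0.03 ± 0.39 (adjusted p = 0.962) with all libraries, 0.04 with library totals in place of TMM, and -0.59 (adjusted p = 0.0131) without replicate 1. With limma voom and sample weights it was called lower with all libraries (-0.53, adjusted p = 0.0182). The library also held the larger share of EF1ALPHA before scaling, with 0.802% of its counts against 0.484 and 0.497% in replicates 2 and 3.

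**Figure D5:**
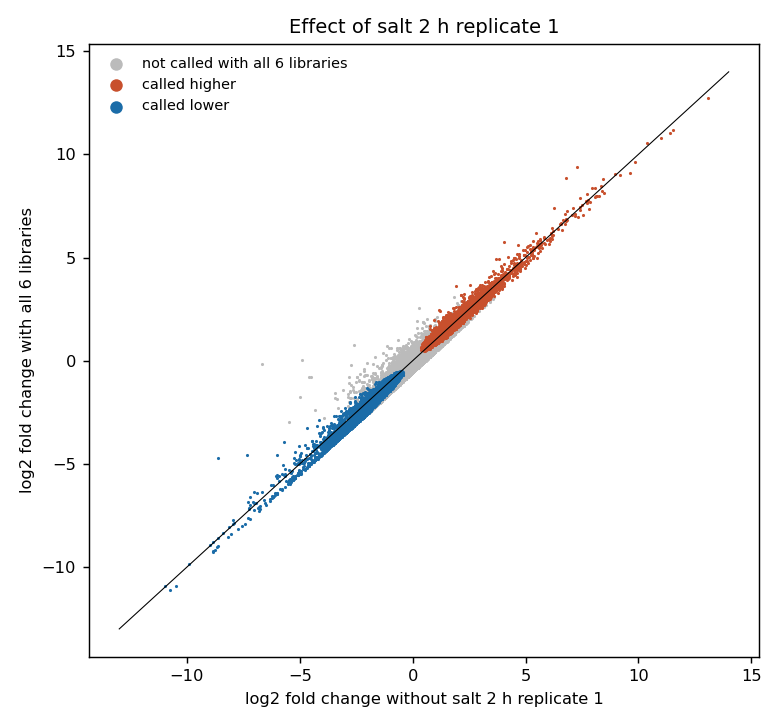
Log2 fold change at 2 h against control without replicate 1 at 2 h (x axis) and with all 6 libraries (y axis) for the genes tested in both, coloured by the call with all libraries; the line marks equal values. Genes called higher and called lower keep their side of 0, and the points far above or below the line are genes in which replicate 1 held most or few of the reads at 2 h.

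The median change was near 0 at each level of expression and differed with gene length. With the genes split into 5 equal sets by mean FPKM over both groups, the median log2 fold change was between -0.05 and 0.06. TMM scaling centres the values near 0, and with library totals the median over all genes was 0.19. Over 5 sets by gene length, as the ratio of count to FPKM gives it, the median ran from -0.20 in the second shortest set to 0.41 in the longest genes. The sets by length held only genes with a mean of 50 counts or more. Replicate 1 lay below the mean of replicates 2 and 3 by 0.07 to 0.13 on the log2 scale in the median of each of these 5 sets. The part of gene length in the comparison was not tested.

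The change from 2 h to 4 h was far smaller than that from the control to 2 h. Between the 3 libraries at 2 h and the 3 at 4 h, 250 genes (1.64%) were higher at 2 h and 149 (0.978%) lower, among 15233 tested, with a median absolute log2 difference of 0.38. Without replicate 1 at 2 h, 1227 (7.86%) and 1062 (6.8%) genes were called, and without any single library at 4 h, or without replicate 3 at 2 h, 0 genes were. These counts therefore depended on which libraries were used. A fit without a library also has fewer libraries in its group, and the part of either was not tested. Among the genes named above, both BiP genes, OEE2, and the small chain of ribulose bisphosphate carboxylase were higher at 2 h than at 4 h, and L-ascorbate peroxidase and UDP-sulfoquinovose synthase lower, with all 6 libraries. Other genes named above differed too, some of them by more, and are given with their values further below.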

How the data were processed

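Polyadenylated RNA of control and salt-treated GY-D55 cells was sequenced by the authors as paired reads. The authors aligned the reads with HISAT2 2.0.5 and assembled further transcripts with StringTie 1.3.3b, versions that the submitters' processing notes give as well, and counted reads per gene with featureCounts. The authors took the genome and gene models from Ensembl Genomes, and the name of the assembly is not given in the sources used here. The counts were deposited by the authors as whole numbers without normalization. The FPKM values, deposited by the authors, divide the count by gene length and a library size factor, and were used here only to compare levels between genes, to place genes by level or length, and as an alternative for shares. All 27 columns of each table were matched to a sample by name.

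Counts of the 6 libraries compared were fitted with edgeR 4.0.16 in R 4.3.3, after filterByExpr and TMM scaling, by the quasi-likelihood test with Benjamini-Hochberg adjustment over all genes tested. A DEG had an adjusted p below 0.05 at any fold change. The 2 h and 4 h libraries were compared in the same way. SE values follow from the fitted fold change and its F statistic. Folds against a group at 0 counts use a floor of 3 counts over the group. Depth limits the precision of low genes, and that of the comparisons comes from the 3 replicates. The calling was tested on simulated data in which 200 genes changed, equally up and down, and no library stood apart. It does not cover changes in as many genes as here, or a library like replicate 1 at 2 h. Replicates of a group differed by more than sampling noise, so each was counted as 1 sample. Deviations of libraries with the same replicate number correlated at -0.07, 0.03, and -0.05, so the numbers were not taken to pair libraries.

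Genes were named by a rule: those that the authors name by identifier, the 10 largest rises and falls among called genes that averaged 100 counts or more and had no overlap of groups and the same call without replicate 1 at 2 h (and 10 of each with a name or a TF family), in each list the 3 with the highest FPKM and the extreme members, and the 5 most counted genes of each group. Genes named as neighbours are outside this rule. The comparison and the lists were chosen with earlier results of these data known. Symbols for light-harvesting, tubulin, and other marker genes could not be matched to the identifiers, so the label of the cells was checked only against the photosynthesis genes that the authors name, which had counts in all 6 libraries. The reference table of assembly v5.5 holds 17742 genes, of which 12541 matched an identifier, and was used for gene order only.

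Other settings tried were DESeq2 1.42.0, limma 3.58.1 with voom and sample weights, RLE size factors, library totals (chosen after seeing the data), all genes with any count, only genes with 10 counts or more in each library, one model for all 27 libraries, a block for the replicate number, a log2 fold change beyond 1 in either direction, p without adjustment, and each library left out. Tables and figures were made with Python 3.11.15, numpy 2.4.6, pandas 2.3.3, and matplotlib 3.10.9.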

Additional observations from a re-analysis of the deposited data

Results flagged for a closer look

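The named genes below differed between 2 h and 4 h of salt by the direct test of the 3 libraries at each time (log2 difference, 2 h minus 4 h, edgeR adjusted p in the range 0.0099 to 0.0494 with all 6 libraries and 0.00748 or less without replicate 1 at 2 h). No gene of the table passed when any library at 4 h or replicate 3 at 2 h was left out, and such a fit has fewer libraries in that group. The calls thus depended on which libraries were used. The part of those libraries, or of the smaller group, in the result was not tested.

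Among genes that had risen against control, the difference was 1.31 for the BiP gene CHLREDRAFT_133650 and 1.03 for CHLREDRAFT_133859, and 1.01 for CHLREDRAFT_97057 between them. It was 1.07 and 1.05 for the RWP genes CHLREDRAFT_195915 and CHLREDRAFT_195840. Of genes with no name, CHLREDRAFT_150155 differed by 2.52, CHLREDRAFT_144494 by 2.15, CHLREDRAFT_144262 by 1.90, CHLREDRAFT_172864 by 1.24, and CHLREDRAFT_186326 by 1.20. All of these were lower at 4 h than at 2 h.

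Among genes that had fallen, OEE2 (CHLREDRAFT_33411) and the small chain of ribulose bisphosphate carboxylase (CHLREDRAFT_82986) were lower still at 4 h, with differences of 0.86 and 1.12. L-ascorbate peroxidase (CHLREDRAFT_192806), UDP-sulfoquinovose synthase (CHLREDRAFT_27658), and the cold shock domain gene CHLREDRAFT_126810 were higher at 4 h than at 2 h, with differences of -1.03, -1.48, and -0.95.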

How the results depend on the processing

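The genes called against control numbered 3170 to 4446 up and 2847 to 4306 down without single libraries, and 3407 up and 3279 down with the replicate number as a block, which the libraries gave no reason to use. DESeq2 called 3921 and 4223, limma 5081 and 4908, and a fit of 27 libraries 4944 and 5066. With library totals the genes down were 2407. The counts of 2 h against 4 h, 250 up and 149 down, moved most. They were 861 and 540 with DESeq2, 1415 and 1223 with limma, 1029 and 947 in a fit of 27 libraries, 6 and 6 with library totals, 0 and 0 with the block (1677 and 1345 at an unadjusted p below 0.05 without the block), 153 and 87 beyond a log2 of 1, and 0 to 1227 and 0 to 1062 without single libraries. The cause was not tested.

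The photosynthesis genes' share of counts at 2 h minus control, -1.12 percentage points, was -0.84 as a share of FPKM. That of the folding and stress genes, 0.187, was 0.0897 as a share of FPKM and 0.253 without the 50 most counted genes. Beyond a log2 of 1, 3 genes of osmolyte supply and 3 of carbohydrate and lipid metabolism rose, and without single libraries 3 to 5 of the latter. The TFs that fell were 21 with limma, 7 with library totals, and 8 to 16 without single libraries. Of the genes named in the text, 2 changed sign, neither called with all libraries in edgeR. In limma EF1ALPHA was called lower with all libraries (-0.533, adjusted p = 0.0182). EF1ALPHA went to 0.038 with library totals and between -0.59 and 0.23 without single libraries. CHLREDRAFT_195605, at 0.019, went to -0.017 with DESeq2 and with RLE, -0.483 with limma, -0.0064 with 10 counts in every library, -0.015 in the fit of 27 libraries, -0.075 with the block, and between -0.558 and 0.311 without single libraries. Over 90 genes and their alternatives, 1188 of 1233 values kept their direction and side of the threshold. Of the rest, 18 lost the call, 15 gained it, and 12 changed sign. Part of these genes were named for large changes and a call that held without replicate 1, and the settings share most libraries. The number of values kept was thus partly fixed by the choice of genes. Genes at 0 or a few counts in a group were not tested where 10 counts were required in every library. Depth limits these and GS1.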
